A study of Mus musculus with 16 samples.

Results

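The microRNAs miR-9 and miR-124 were followed in the lateral ventricle (LV) wall of WT and Dgcr8+/- mice. Their members were taken by name, as both arms of each hairpin: mmu-miR-9-5p, mmu-miR-9-3p, mmu-miR-124-3p and mmu-miR-124-5p (the mouse prefix mmu is left out from here on), which are 4 of the 1881 mature mouse miRNAs on the array. Each of these 4 miRNAs was detected on all 16 arrays, and all 4 were among the 495 miRNAs tested, which were those detected on at least 8 arrays. The mice were males, 8 months old and on a C57BL/6J background. The WT group was 8 littermates, and the Dgcr8+/- group was 8 mice of a line with 1 functional copy of Dgcr8, a germline loss present in every cell. The arrays therefore compare lifelong heterozygosity in the whole animal, not a loss restricted to the ventricle wall. Total RNA from each wall was labelled with Cy3 and hybridised to a 1-colour Agilent array.

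Dgcr8 binds the hairpin of a primary miRNA transcript and positions Drosha, the nuclease that releases the hairpin, so most miRNAs of a cell depend on it. miR-9 and miR-124 are classic neural miRNAs. miR-9 is made in neural stem and progenitor cells as well as in neurons, where its targets include the stem cell receptor Nr2e1 and the transcription factor Hes1, and both of its arms are loaded onto Argonaute. miR-124 rises as neurons are born and is among the most abundant miRNAs of mature neurons, where its 3p arm silences non-neuronal transcripts such as that of the splicing repressor Ptbp1. In the subventricular zone, the neurogenic layer under the ependymal lining of the LV, miR-124 promotes the step from dividing neuroblast to neuron, with Sox9 as a target. Together, miR-9-5p, miR-9-3p and miR-124 act on the REST repressor complex, which keeps neuronal genes silent outside neurons.

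The mature miR-9 sequences are shown because the seed (bases 2 to 8 from the 5′ end, in capitals) sets which transcripts each arm recognises, and the seeds of the 2 arms differ. The miR-9b arms, which the RefSeq table places on the opposite strand of the same hairpins and which had no probe on the array, are shown beside them. The sequences are those of RefSeq, build GRCm38.p6, from 5′ to 3′.
miR-9-5p: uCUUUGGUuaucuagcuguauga
miR-9-3p: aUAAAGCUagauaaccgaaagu
miR-9b-5p: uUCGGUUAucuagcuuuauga
miR-9b-3p: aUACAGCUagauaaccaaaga
None of the 4 seeds is the same, and 0 other mature mouse miRNAs among the 1679 names of the table carried the seed of miR-9-5p or of miR-9-3p. That table held mature sequences for 1608 of the 1881 miRNAs of the array and for 2 of the 4 members. It held none for the miR-124 arms, so their seeds were not compared. The longest run of bases that miR-9-5p shares with miR-9b-5p is 12 bases long, and miR-9-3p also shares a run of 12 bases with miR-9b-3p. Mature miR-9-5p is encoded at 3 places, chr3:88215613-88215635, chr7:79505279-79505301 and chr13:83738821-83738843, all on the plus strand of GRCm38.p6. These are the genes Mir9-1, Mir9-3 and Mir9-2, which lie within the long noncoding RNA genes Gm3764, Mir9-3hg and C130071C03Rik, respectively. miR-124 also comes from 3 genes. Mir124a-1 on chromosome 14 lies in its host transcript Mir124a-1hg, Mir124a-2 on chromosome 3 lies in Mir124-2hg, and Mir124a-3 on chromosome 2 lies between Gm14344 and Ythdf1 with no overlapping gene. The arrays measure mature RNA, so the signal of each miR-9 arm is the sum over its 3 genes.

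The arrays differed in brightness. The summed miRNA signal ran from 21545358 to 29763412 units in WT mice and from 18528866 to 23440575 units in Dgcr8+/- mice, and 495 to 540 miRNAs were detected per WT array against 467 to 492 per Dgcr8+/- array. Slide 1 carried 6 WT and 2 Dgcr8+/- arrays and slide 2 carried 2 WT and 6 Dgcr8+/- arrays. Dgcr8+/- replicate 2 stood apart, with the lowest summed signal and the lowest hybridisation spike-ins of the 16 arrays (13.08 on the log2 scale), so results are given with and without it. The methods of the study call for quantile normalization, which makes the distribution of signals identical on all arrays and removes any change that most miRNAs share. Values after quantile normalization are therefore changes relative to the other miRNAs of an array, and the signals without normalization between arrays are given next to them.

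After quantile normalization, 0 of the 4 miRNAs passed the threshold of an adjusted p below 0.05, whereas 278 of the 495 tested miRNAs (56.2%) did, 138 of them lower (27.9%) and 140 higher (28.3%) in Dgcr8+/- mice. Both miR-9 arms had log2 fold changes within 0.03 of 0, and both miR-124 arms had small positive ones of at most 0.10. The unadjusted p from limma was 0.450 for miR-9-5p, 0.776 for miR-9-3p, 0.165 for miR-124-3p and 0.123 for miR-124-5p. The methods' t-test with Benjamini-Hochberg adjustment also called 0 of the 4, against 55.8% of all tested miRNAs. The median size of the change over all tested miRNAs was 0.27 on the log2 scale, and only 37, 17, 80 and 102 of the 495 miRNAs had a smaller change than miR-9-5p, miR-9-3p, miR-124-3p and miR-124-5p, respectively.

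The quantile-normalized log2 signal of miR-9-5p, the arm that targets Nr2e1 and REST, had a lowest, median and highest value of 13.02, 13.05 and 13.07 in WT mice and of 12.92, 13.12 and 13.16 in Dgcr8+/- mice. The WT mice were tightly grouped, 5 of the 8 Dgcr8+/- mice lay above all of them, and 1, replicate 2, lay below. The means ± SD were 13.06 ± 0.02 and 13.08 ± 0.07 (n = 8 mice each), so that Dgcr8+/- minus WT was 0.029 log2 units (standard error 0.037, 95% interval −0.05 to 0.11, adjusted p = 0.522 from limma). Without Dgcr8+/- replicate 2 it was 0.052 (adjusted p = 0.0639 from limma).

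miR-9-3p, the arm whose targets include the REST corepressor, had values of 12.58, 12.61 and 12.68 in WT mice and of 12.42, 12.64 and 12.65 in Dgcr8+/- mice. All Dgcr8+/- mice except replicate 2 lay inside the WT range. Its means ± SD were 12.62 ± 0.03 and 12.61 ± 0.08 (n = 8 each), which gave a fold change of −0.011 on the log2 scale (standard error 0.039, 95% interval −0.09 to 0.07, adjusted p = 0.830 from limma), and without Dgcr8+/- replicate 2 the direction turned, to 0.015 (adjusted p = 0.565 from limma). The Dgcr8+/- mouse that widened the spread was the same for both arms, and without it the SD of that group was 0.040 for miR-9-5p and 0.022 for miR-9-3p.

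miR-124-3p, the arm that carries the known neuronal activity of miR-124, had values of 14.09, 14.12 and 14.26 in WT mice and of 14.13, 14.15 and 14.43 in Dgcr8+/- mice. The groups overlapped, although all 8 Dgcr8+/- mice lay above the WT median and 2 lay above the highest WT mouse. The means ± SD were 14.14 ± 0.05 and 14.21 ± 0.11 (n = 8 each), with a genotype difference of 0.070 log2 units (standard error 0.048, 95% interval −0.03 to 0.17, adjusted p = 0.217 from limma). The Dgcr8+/- replicate with the lowest miR-9 signals had the highest miR-124-3p signal, and without it the log2 fold change was 0.038 (adjusted p = 0.314 from limma).

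miR-124-5p, the passenger arm, had values of 5.71, 5.84 and 5.99 in WT mice and of 5.73, 5.94 and 6.13 in Dgcr8+/- mice. Of the 8 Dgcr8+/- mice, 6 lay above the WT median and 2 above the WT range. Its means ± SD were 5.83 ± 0.09 and 5.93 ± 0.14 (n = 8 each), with a genotype difference of 0.10 log2 units (standard error 0.061, 95% interval −0.03 to 0.23, adjusted p = 0.170 from limma), and without Dgcr8+/- replicate 2 it was 0.13 (adjusted p = 0.0545 from limma). Expressed as ratios of Dgcr8+/- to WT, the intervals ran from 0.966 to 1.08 for miR-9-5p, from 0.936 to 1.05 for miR-9-3p, from 0.978 to 1.13 for miR-124-3p and from 0.979 to 1.17 for miR-124-5p.

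**Figure D1:**
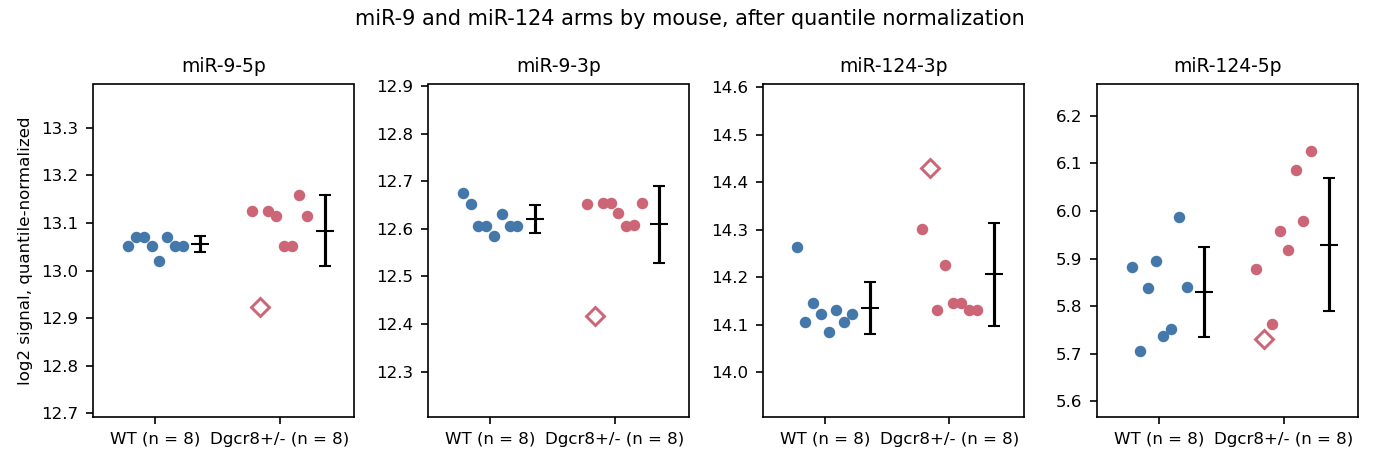
Quantile-normalized log2 signal (y axis, 0.7 log2 units in each panel) of each miR-9 and miR-124 arm by mouse, WT in blue and Dgcr8+/- in red. Each point is 1 mouse, the open diamond is Dgcr8+/- replicate 2, and bars are means ± SD (n = 8); the groups overlap for every arm, and replicate 2 is lowest for both miR-9 arms (12.92 and 12.42) and highest for miR-124-3p (14.43).

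Taking the slide into account, 0 of the 4 passed the threshold in limma, against 59.6% of all tested miRNAs. With the slide as a block the log2 fold change was −0.0052 for miR-9-5p (adjusted p = 0.917 from limma), −0.043 for miR-9-3p (adjusted p = 0.418), 0.11 for miR-124-3p (adjusted p = 0.104) and 0.059 for miR-124-5p (adjusted p = 0.480). Within slide 1, where Dgcr8+/- replicate 2 was 1 of the 2 Dgcr8+/- arrays, the differences between the means were −0.06, −0.09, 0.14 and 0.000049, in that order. Within slide 2 they were 0.05, 0.0088, 0.07 and 0.12. The direction of both miR-9 arms was therefore opposite on the 2 slides, and that of miR-124-3p was the same.

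Without normalization between arrays, both miR-9 arms and miR-124-3p were lower in Dgcr8+/- mice, and miR-124-5p lay lower without passing the threshold. miR-9-5p had log2 signals of 12.96, 13.19 and 13.52 (lowest, median and highest) in WT mice and of 12.12, 12.89 and 13.13 in Dgcr8+/- mice. All 8 Dgcr8+/- mice lay below the WT median and 4 lay below every WT mouse. It fell by 26.4% (log2 fold change −0.44, adjusted p = 0.00687 from limma).

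For miR-9-3p the unnormalized log2 signals were 12.56, 12.73 and 13.11 in WT mice and 11.39, 12.47 and 12.63 in Dgcr8+/- mice. Again all 8 Dgcr8+/- mice lay below the WT median, and 5 lay below every WT mouse. miR-9-3p fell by 27.8% (log2 fold change −0.47, adjusted p = 0.0116 from limma).

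For miR-124-3p they were 14.02, 14.25 and 14.60 in WT mice and 13.77, 14.03 and 14.25 in Dgcr8+/- mice, with 8 Dgcr8+/- mice below the WT median and 4 below every WT mouse. It fell by 18.4% (log2 fold change −0.29, adjusted p = 0.0215 from limma). For miR-124-5p they were 5.68, 5.96 and 6.44 against 5.16, 5.81 and 6.02, with 6 Dgcr8+/- mice below the WT median and 3 below every WT mouse. This arm did not pass the threshold (change −17.8%, log2 fold change −0.28, adjusted p = 0.0603 from limma), but with the slide as a block it did (−0.40, adjusted p = 0.0155 from limma).

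These differences were close to that of the array as a whole. On the unnormalized scale 293 of the 495 tested miRNAs (59.2%) were called lower and 0 higher, and the median log2 fold change was −0.39. Set against that median, the log2 fold changes were −0.05 for miR-9-5p, −0.08 for miR-9-3p, 0.10 for miR-124-3p and 0.11 for miR-124-5p. The median over the tested miRNAs of an array differed by −0.33 log2 units between Dgcr8+/- and WT mice (2-sided exact permutation test, p = 0.00171). Synthetic RNAs added before labelling (labelling spike-ins) differed by −0.0090 between genotypes (exact permutation test, p = 0.936) and the hybridisation spike-ins by −0.36 (exact permutation test, p = 0.0497). Of the hybridisation spike-ins, Dgcr8+/- replicate 2 had the lowest log2 value (13.08) and WT replicate 6 the highest (15.44). All other arrays lay between 14.30 and 14.67. The difference without these 2 arrays was not tested. The part of array brightness in the unnormalized differences was not tested. In bulk tissue, fewer cells of a type and less RNA per cell cannot be told apart. Without Dgcr8+/- replicate 2 the unnormalized log2 fold changes were −0.34, −0.34, −0.26 and −0.20, and the same 3 miRNAs were past the threshold (adjusted p = 0.00691, 0.00826 and 0.0328 from limma, and 0.115 for miR-124-5p). The share of all tested miRNAs called on this scale was not counted without that mouse.

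**Figure D2:**
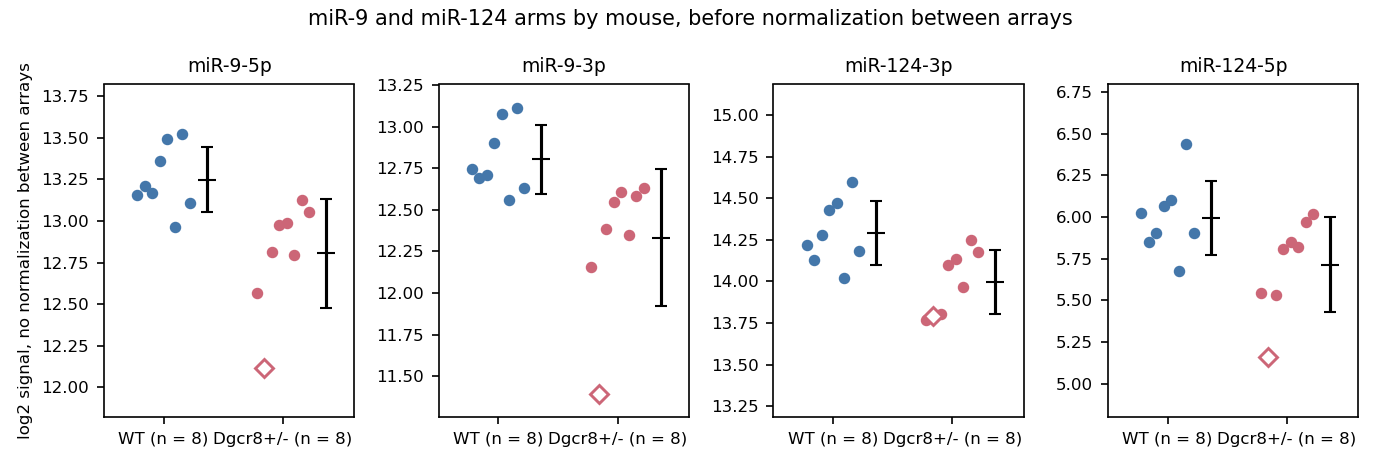
Log2 signal without normalization between arrays (y axis, 2 log2 units in each panel) of each arm by mouse, WT in blue and Dgcr8+/- in red. Each point is 1 mouse, the open diamond is Dgcr8+/- replicate 2, and bars are means ± SD (n = 8); the Dgcr8+/- means lie below the WT means for every arm, with differences of −0.44 for miR-9-5p, −0.47 for miR-9-3p, −0.29 for miR-124-3p and −0.28 for miR-124-5p.

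Whether miR-9 and miR-124 were called at all depended on how the arrays were brought to a common scale. When every array was divided by the 75th percentile of its probes, counting those seen on all 16 arrays, miR-124-3p was higher by 0.24 (adjusted p = 0.00415 from limma), miR-124-5p by 0.25 (adjusted p = 0.000809) and miR-9-5p by 0.09 (adjusted p = 0.0428), while miR-9-3p was at 0.07 (adjusted p = 0.333). On this scale miR-9-5p lost its call with the slide as a block (0.076, adjusted p = 0.155 from limma), and miR-9-3p gained one without Dgcr8+/- replicate 2 (0.12, adjusted p = 0.00524 from limma). Without that mouse the median of all tested miRNAs was 0.13, above both miR-9 arms. Both fits were added after the data were seen, and the share of miRNAs called in them was not counted. With all 16 arrays the median of all tested miRNAs on this percentile scale was itself 0.14 above 0. Of these miRNAs 67.9% were called, 126 lower and 210 higher (42.4%). Cyclic loess gave 0.22 for miR-124-3p (adjusted p = 0.0320) and 0.15 for miR-124-5p (adjusted p = 0.0429), with a median of 0.05 over all tested miRNAs and 59.8% called (31.1% higher), and left both miR-9 arms short of the threshold. Scaling to the 75th percentile of all probes called none of the 4 by limma, with adjusted p between 0.420 and 0.459, while 53.5% of all tested miRNAs were called. Scaling by the labelling spike-ins put both miR-9 arms below WT, by −0.43 (adjusted p = 0.00760) and −0.46 (adjusted p = 0.00660), with miR-124-3p at −0.28 (adjusted p = 0.0837) and miR-124-5p at −0.27 (adjusted p = 0.0890), and 52.9% of all tested miRNAs were called, all of them lower. Under each of these settings miR-124-3p and miR-124-5p lay above the median of all tested miRNAs. The percentile and spike-in scalings divide all probes of an array by the same factor. Distances from the median are therefore equal under them and without normalization by construction, and count as a single result. The miR-9 arms lay below that median except for miR-9-5p under cyclic loess, which lay 0.017 above it. This order did not hold everywhere: with the deposited totals per miRNA, quantile-normalized, miR-124-3p and miR-124-5p lay at −0.0050 and −0.017 from the median and miR-9-5p at 0.019. On the quantile scale miR-124-3p lay at −0.0039 from it without Dgcr8+/- replicate 2 and at −0.0026 with its second probe alone, and miR-9-5p at 0.010 and 0.022.

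**Figure D3:**
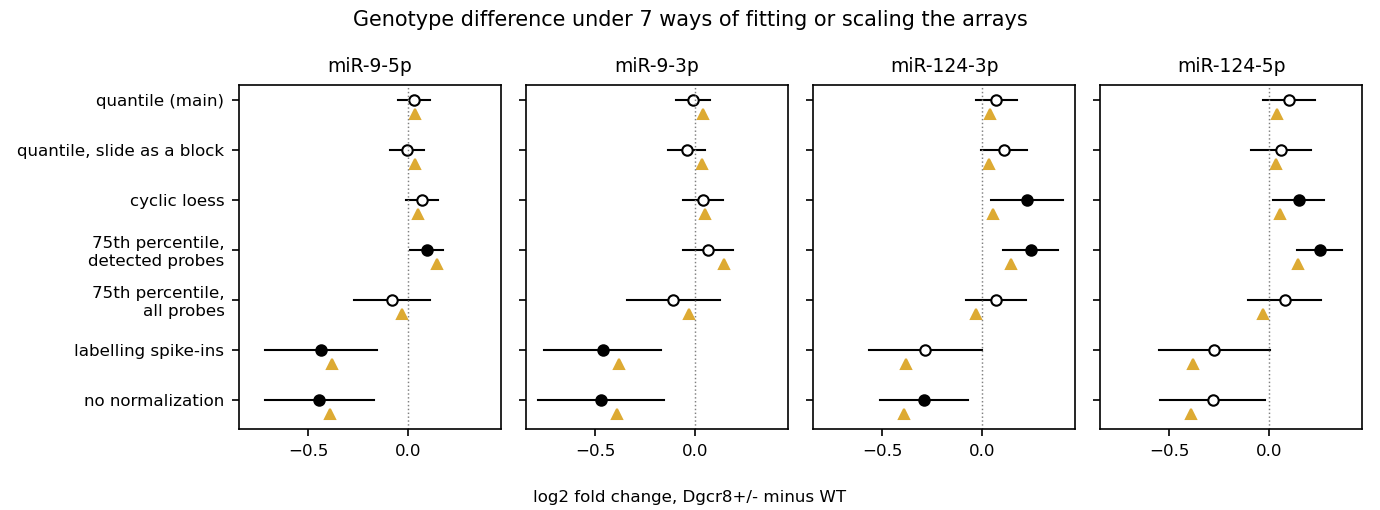
Log2 fold change (x axis, Dgcr8+/- minus WT) of each arm under 7 ways of fitting or scaling the arrays (y axis). Circles are limma estimates with 95% intervals, filled where the adjusted p is below 0.05, and triangles mark the median of all 495 tested miRNAs under the same setting; miR-124-5p goes from −0.28 to 0.25, following the triangle.

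A factor common to all probes of an array cancels in the difference between 2 of its miRNAs, so such differences were compared as well. Effects of brightness that are unequal between probes do not cancel, and their part was not tested. Each such difference also holds the unequal brightness of the probes, so only its change between genotypes can be read. On the unnormalized scale, miR-9-3p minus miR-9-5p had a lowest, median and highest value of −0.52, −0.44 and −0.40 in WT mice and of −0.72, −0.43 and −0.38 in Dgcr8+/- mice. The lowest value was that of Dgcr8+/- replicate 2, and the other 7 Dgcr8+/- mice, between −0.54 and −0.38, overlapped the WT range. The genotypes differed by −0.027 (2-sided exact permutation test, p = 0.645, adjusted p = 0.896 over 3 differences), and by 0.0090 without that mouse (exact permutation test, adjusted p = 0.708). The quantile-normalized difference was −0.04 (exact permutation test, p = 0.0227, adjusted p = 0.0681).

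miR-124-5p minus miR-124-3p had unnormalized values of −8.38, −8.31 and −8.16 in WT mice and of −8.63, −8.28 and −8.15 in Dgcr8+/- mice. The groups overlapped along nearly the whole range, with replicate 2 again the lowest Dgcr8+/- mouse. The genotypes differed by 0.0097 (exact permutation test, adjusted p = 0.896) and by 0.029 after quantile normalization (exact permutation test, adjusted p = 0.748). Without replicate 2 these were 0.059 (exact permutation test, adjusted p = 0.205) and 0.090 (exact permutation test, adjusted p = 0.268).

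miR-124-3p minus miR-9-5p, which sets the neuronal miRNA against the progenitor and neuronal one, had unnormalized values of 0.92, 1.07 and 1.11 in WT mice and of 0.99, 1.14 and 1.67 in Dgcr8+/- mice. Of the 8 Dgcr8+/- mice, 7 lay above the highest WT mouse. Replicate 2 alone reached 1.67, and the others lay between 0.99 and 1.20. The group means ± SD were 1.04 ± 0.06 and 1.19 ± 0.20 (n = 8 each), a difference of 0.15 (exact permutation test, p = 0.0148, adjusted p = 0.0443 over 3 differences). Without replicate 2 the difference was 0.08 and no longer passed the threshold (exact permutation test, p = 0.0303, adjusted p = 0.0909). It was 0.35 within slide 1 (exact permutation test over 28 groupings, p = 0.0357, the smallest they can give, adjusted p = 0.107) and 0.12 within slide 2 (p = 0.107, adjusted p = 0.321, the same exact test). After quantile normalization it was 0.041 (exact permutation test, adjusted p = 0.748), and −0.014 without replicate 2 (exact permutation test, adjusted p = 0.638).

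**Figure D4:**
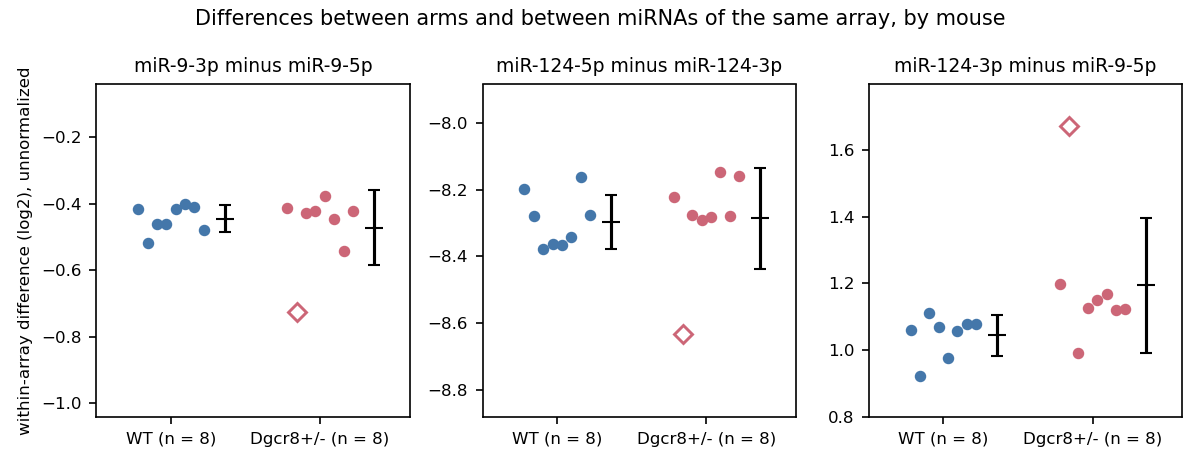
Unnormalized log2 difference between 2 miRNAs of the same array (y axis, 1 log2 unit in each panel) by mouse, for the arms of miR-9, the arms of miR-124, and miR-124-3p against miR-9-5p. Points are mice, WT in blue and Dgcr8+/- in red, the open diamond is Dgcr8+/- replicate 2, and bars are means ± SD (n = 8); that mouse is farthest from the others in every panel, at −0.72, −8.63 and 1.67.

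Each of the 4 miRNAs had 2 probes with 15 spots each on every array. The median coefficient of variation of the spots of a probe on an array was 5.46% and 5.39% for the miR-9-5p probes, 6.69% and 7.42% for miR-9-3p, 2.65% and 3.25% for miR-124-3p, and 12.2% and 10.1% for the dim miR-124-5p. Both probes of miR-9-5p moved by small positive amounts (0.0082 and 0.059 on the log2 scale after quantile normalization), both probes of miR-9-3p by small negative ones (−0.00048 and −0.027), and those of miR-124-3p (0.16 and 0.034) and of miR-124-5p (0.13 and 0.081) by positive ones. Quantile normalization replaces a signal by the mean signal at its rank, and for the brightest probes few ranks were in use. Over the 16 arrays the miR-9-5p probes took only 3 and 6 different values, the miR-9-3p probes 4 and 4, and the miR-124-3p probes 7 and 3, whereas the miR-124-5p probes took 16 and 15. The narrow spread of the bright arms on the normalized scale therefore came with this small number of values, and their unnormalized SDs were 0.19 to 0.41.

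The 3 tested miRNAs whose quantile-normalized signal followed each arm most closely over the 16 arrays were found by the root mean square (RMS) difference of centred log2 signals, a description without a test. The arms of miR-9 were each other's closest miRNA among 494, with an RMS difference of 0.037. They were followed by miR-3963 (0.043) and let-7a-5p (0.054) for miR-9-5p and by let-7a-5p (0.041) and miR-3963 (0.045) for miR-9-3p. The arms of miR-124 did not track each other in this way. Closest to miR-124-3p were miR-125b-5p (0.065), miR-5100 (0.071) and miR-26a-5p (0.074), and miR-124-5p ranked 97 of 494. Closest to miR-124-5p were miR-138-2-3p (0.066), miR-1843a-5p (0.087) and miR-434-5p (0.088), and miR-124-3p ranked 86 of 494. Since the values share arrays and the bright probes share few ranks, these likenesses describe the arrays and nothing beyond them.

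A list of 13 other miRNAs known from neural stem cells and from the birth and maturation of neurons was read beside them. Of these, 12 were tested, and 5 were called lower, 1 higher and 6 neither way, with a median log2 fold change of −0.06 against 0.04 over all tested miRNAs. miR-184-3p, a regulator of adult neural stem cell division, was detected on no array. The lowest were miR-134-5p, a dendritic miRNA (−0.55, standard error 0.08, adjusted p = 2.46e-05 from limma, detected on 12 arrays), miR-25-3p of the miR-106b-25 cluster, which promotes stem cell proliferation (−0.43, standard error 0.08), and miR-7a-5p, which targets the progenitor factor Pax6 (−0.30, standard error 0.09). miR-181a-5p was the one called higher (0.25, standard error 0.05, adjusted p = 0.000859 from limma). Among the miRNAs not called, miR-34a-5p had the largest value (0.26, standard error 0.14, adjusted p = 0.118 from limma).

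Of 15 other neuron-enriched miRNAs, all were tested, and 4 were called lower, 2 higher and 9 neither way, with a median of −0.03. miR-128-3p, miR-132-3p, miR-137-3p and miR-218-5p are in both lists. The lowest were miR-487b-3p (−0.31, standard error 0.06), miR-376a-3p (−0.29, standard error 0.07) and miR-218-5p (−0.15, standard error 0.05). miR-138-5p, which limits the size of dendritic spines, was higher by 0.21 (standard error 0.05, adjusted p = 0.00123 from limma) and miR-127-3p by 0.14 (standard error 0.04). miR-212-3p had the largest value among those not called (0.23, standard error 0.10, adjusted p = 0.0528 from limma). The shares of the 2 lists called, 6 of 12 and 6 of 15, can be read against 56.2% of all tested miRNAs. Without normalization between arrays 10 and 15 miRNAs of the 2 lists were called lower and none higher, beside 59.2% lower over all tested miRNAs on that scale, so the directions given here are relative to the other miRNAs.

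**Figure D5:**
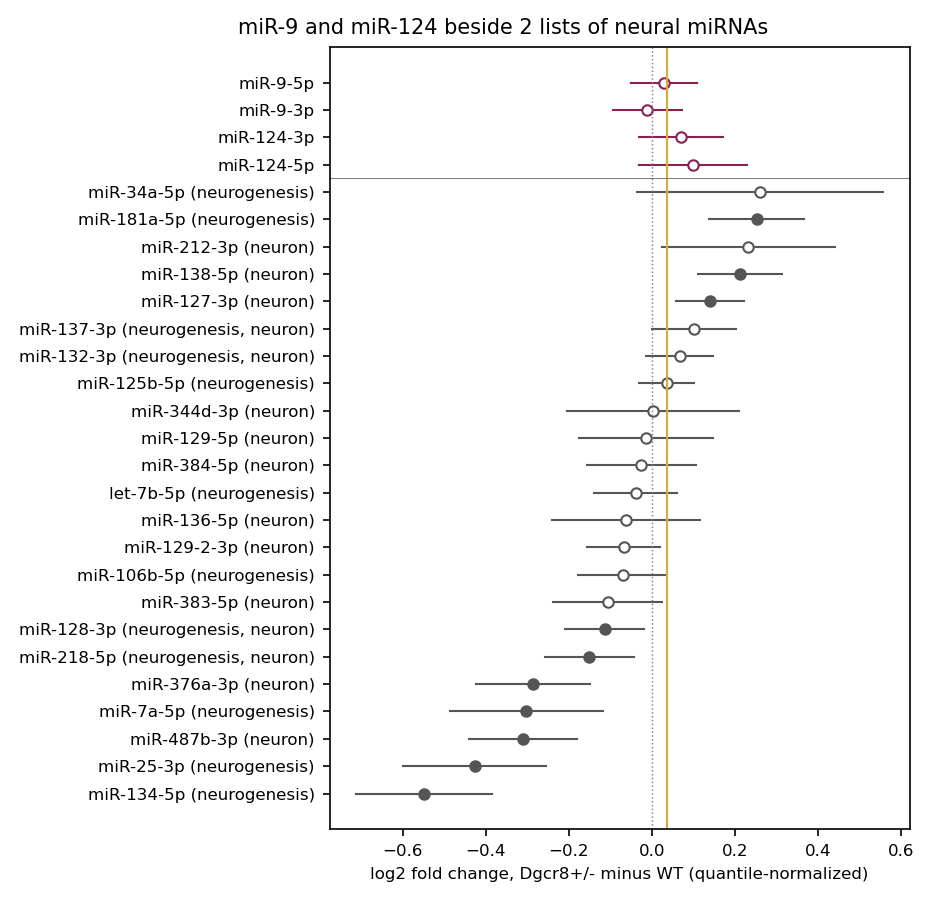
Log2 fold change (x axis, Dgcr8+/- minus WT, quantile-normalized) of the miR-9 and miR-124 arms (purple) and of the tested miRNAs of the neurogenesis and neuron lists (grey). Circles are limma estimates with 95% intervals, filled where the adjusted p is below 0.05, and the vertical line is the median of all 495 tested miRNAs (0.04); the 4 arms lie between −0.011 and 0.10, and the lists run from −0.55 to 0.26.

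The wall holds several cell types, and markers of the others were read on the same quantile scale, where 56.2% of all tested miRNAs were called (27.9% lower and 28.3% higher). These lists held 2 to 5 tested miRNAs each, so their calls are few and are read against those shares. miR-449a-5p, which marks ciliated cells such as those of the ependyma, was detected on all 16 arrays. Of the 7 ciliated-cell miRNAs, 5 were tested and 0 were called by limma (lowest adjusted p = 0.0594, for miR-34c-5p), with a median log2 fold change of 0.29. Scaled to the 75th percentile of the detected probes, 3 of these 5 were called higher, miR-34b-3p, miR-34c-3p and the defining miR-449a-5p (0.32, adjusted p = 0.00100 from limma), where 42.4% of all tested miRNAs were. On that scale the other lists had 1 choroid plexus and 1 red cell miRNA called lower, and 2 oligodendrocyte, 3 vessel and 1 immune miRNA called higher. After quantile normalization the log2 of the summed signal of the ciliated-cell miRNAs ran from 9.09 to 10.33 in WT mice and from 9.77 to 10.62 in Dgcr8+/- mice. The sums of the other lists are given in the same way, as the log2 of the summed signal. The neuron list summed to 15.05 to 15.17 in WT mice, and its range in Dgcr8+/- mice, 15.05 to 15.16, was nearly the same. Of 3 choroid plexus miRNAs, 2 were tested and 1 was called lower, miR-204-5p (−0.29), with miR-211-5p at 0.0021. The list sum ran from 9.06 to 9.53 in WT mice and from 8.66 to 9.30 in Dgcr8+/- mice. Of 4 oligodendrocyte miRNAs, 1 was called higher, miR-219a-2-3p (0.29), with sums of 12.97 to 13.56 and of 13.00 to 13.47. The others of that list, not called, lay on both sides of 0: miR-219a-5p at 0.13, miR-338-3p at −0.11 and miR-338-5p at −0.14. The median of the list was 0.013. Of 4 vessel miRNAs, 2 were called higher, with the defining miR-126a-3p at 0.0036, and sums of 10.68 to 10.83 and of 10.63 to 10.91. Of 4 red cell miRNAs, 3 were tested and 1 was called lower, with the defining miR-451a at −0.12, and sums of 9.06 to 9.80 and of 8.87 to 9.51. Of 6 microglial and immune miRNAs, 5 were tested, and 1 was called lower and 1 higher, with the defining miR-142a-3p at −0.17. The sums were 8.59 to 8.78 and 8.54 to 8.79. The untested one, miR-155-5p, was detected on 2 arrays. miR-449b, miR-449c-5p, miR-204-3p and miR-144-5p were detected on 0 arrays, whereas the defining marker of each list was detected on all 16, and the part of cell composition in the values of miR-9 and miR-124 was not tested.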

How the data were processed

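Total RNA (100 ng) from the LV wall of 8 WT and 8 Dgcr8+/- mice, 1 array each, was measured on 1-colour Agilent miRNA arrays. The authors deposited the scanner output with a background-corrected intensity per spot, not normalized between arrays, and a table of total intensity per miRNA, equal to the total gene signal of those files (largest difference 0). The methods name Feature Extraction 10.5.1.1, whereas the deposited file headers give 10.7.3.1. No miRNA spot was saturated. The study's own comparisons were not used.

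From the deposited intensities, spots that the software had marked as outliers were dropped (2.67% of all miRNA spots), the remaining ones were averaged per probe, the 4415 probes were quantile-normalized, probes were averaged per miRNA, values under 1 were set to 1 and log2 was taken. The 495 miRNAs detected on at least 8 of 16 arrays were compared with limma 3.58.1 in R 4.3.3 and Benjamini-Hochberg adjustment over all 495. Differences between 2 miRNAs of an array were compared by 2-sided exact permutation over 12870 groupings (smallest p 0.000155), adjusted over 3 differences. The analysis was tested on simulated data. Slide, scaling, background, floor, filter, probe and replicate alternatives were tried, as were within-slide values. Normalization by normexp used the median signal, with offset 50.

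The members, lists and tests were chosen with earlier results of these data known. Named in full are the 4 members, the 3 miRNAs most like each of them and any miRNA with the seed of a miR-9 arm. From each list, the called miRNAs (up to the 3 lowest and 3 highest) and the uncalled one with the largest change are named. The seeds of the miR-124 arms were not searched, because RefSeq held no mature sequence for them. The labels give each array as a biological replicate. The number of arrays limits the precision.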

Additional observations from a re-analysis of the deposited data

Results flagged for a closer look

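Of 28 groups of 8 values searched for a mouse far from the others of its genotype (a gap to its nearest neighbour above 0.526 of the range), 9 held one, where chance gives about 1 in 20, and 6 of these were Dgcr8+/- replicate 2. That mouse had the lowest quantile-normalized log2 signal of miR-9-5p (12.92, others 13.05 to 13.16) and of miR-9-3p (12.42, others 12.61 to 12.65), and the lowest unnormalized log2 signal of miR-9-3p (11.39, others 12.16 to 12.63). Its unnormalized miR-124-5p minus miR-124-3p was −8.63 (others −8.29 to −8.15), its unnormalized miR-124-3p minus miR-9-5p was 1.67 (others 0.99 to 1.20) and its quantile-normalized miR-124-3p minus miR-9-5p was 1.51 (others 0.97 to 1.18). Its array had the lowest summed signal, 18528866 units, and the lowest hybridisation spike-ins, 13.08, and their part in these values was not tested.

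In the WT group, replicate 5 had the lowest quantile-normalized miR-9-5p signal (13.02, others 13.05 to 13.07). WT replicate 1 had the highest quantile-normalized miR-124-3p signal (14.26, others 14.09 to 14.15) and the highest quantile-normalized miR-124-3p minus miR-9-5p (1.21, others 1.04 to 1.08). The 28 groups are not independent, since several hold the same signals.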

How the results depend on the processing

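The order below is miR-9-5p, miR-9-3p, miR-124-3p and miR-124-5p, and values are log2 fold changes (Dgcr8+/- minus WT) with limma. No normalization gave −0.44, −0.47, −0.29 and −0.28 (the first 3 past the threshold), −0.34, −0.34, −0.26 and −0.20 without Dgcr8+/- replicate 2 (the same 3), and −0.57, −0.61, −0.33 and −0.40 with the slide as a block (all 4). The labelling spike-ins gave −0.43, −0.46, −0.28 and −0.27 (the first 2). The 75th percentile of the detected probes gave 0.092, 0.065, 0.24 and 0.25 (all but miR-9-3p), 0.11, 0.12, 0.19 and 0.25 without Dgcr8+/- replicate 2 (all 4), and 0.08, 0.030, 0.31 and 0.24 with the slide as a block (both miR-124 arms). In the plain fits to all arrays, 59.2% of all tested miRNAs passed without normalization and 67.9% on this percentile scale. On these scales that share was not counted with the slide as a block or without Dgcr8+/- replicate 2, and those fits were added after the data were seen. With the 75th percentile of all probes miR-9-5p was at −0.081. Cyclic loess put miR-9-3p at 0.040, miR-124-3p at 0.22 and miR-124-5p at 0.15 (the last 2 past the threshold), keeping marked spots put miR-9-3p at 0.0017, and the slide as a block put miR-9-5p at −0.0052. Within slide 1, miR-9-5p was at −0.065 and miR-9-3p at −0.094. Under the deposited totals, normexp, both other floors, both other filters, either probe alone, the median over probes, marked spots kept and the methods' t-test, none of the 4 passed the threshold, while 47.3% to 58.1% of the tested miRNAs did where the whole table was fitted (15% of 1881 without a filter). By their construction the scalings differ in whether they keep a change shared by most miRNAs. What else made the values differ was not tested.

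For miR-124-3p minus miR-9-5p, the difference between genotypes was 0.15 under no normalization and 0.15 under cyclic loess (both past the threshold in the exact permutation test). A factor per array cancels in a difference of this kind. Both percentiles and the spike-ins therefore repeat the unnormalized value and its test by construction. On the quantile scale, where it was 0.041 with both probes, the difference was 0.16 with the first probe alone (adjusted p = 0.267 in the same test). It was −0.025 with the second probe alone on that scale. It was −0.024 with the deposited totals, quantile-normalized. Within slide 1 it was 0.21 on the quantile scale and 0.35 without normalization. For miR-124-5p minus miR-124-3p it was −0.077 under cyclic loess. On the quantile scale it was −0.012 with the deposited totals, −0.037 with normexp, −0.0040 with marked spots kept, −0.038 with the first probe alone and −0.14 within slide 1. For miR-9-3p minus miR-9-5p on the quantile scale it was −0.048 with the median over probes and −0.086 with the second probe alone (both past the threshold in the exact permutation test). With the first probe alone it was −0.0087 on that scale (adjusted p = 0.824 in the same test). Without Dgcr8+/- replicate 2 it was 0.0090 under no normalization and under the 75th percentile of the detected probes.

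Leaving out each mouse in turn, the log2 fold changes ranged from 0.020 to 0.052, from −0.018 to 0.015, from 0.038 to 0.090 and from 0.072 to 0.13, and 0 of 16 passed the threshold for any of the 4. miR-9-3p changed sign without Dgcr8+/- replicate 2. The within-array differences ranged from −0.048 to −0.031 (miR-9 arms, 2 of 16 past the threshold), from −0.0093 to 0.09 (miR-124 arms) and from −0.014 to 0.062 (miR-124-3p minus miR-9-5p). The counts over all tested miRNAs ranged from 133 to 151 lower and from 126 to 170 higher, for the neurogenesis list from 4 to 5 lower and 1 to 3 higher, and for the neuron list from 3 to 4 lower and 2 to 4 higher, with the most higher calls without Dgcr8+/- replicate 2.

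No normalization called 293 lower and 0 higher, and the spike-ins 262 lower and 0 higher, against 138 and 140. The neurogenesis list had 10 lower and 0 higher under both, 3 lower and 2 higher under the 75th percentile of the detected probes, 0 higher under that of all probes, 2 higher under cyclic loess, and 3 lower with the deposited totals or with marked spots kept. The neuron list had 15 lower and 0 higher under no normalization, 13 lower and 0 higher under the spike-ins, 0 higher under the 75th percentile of all probes, and 2 lower with the deposited totals or with marked spots kept.

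The values left unsettled whether the replicate numbers of the labels pair the mice (correlation of deviations over 0.1 in 5 of 8 numbers, range −0.14 to 0.50, and 3 of 8 WT mice closest to their own number). With the replicate block the log2 fold changes were 0.029, −0.011, 0.070 and 0.10 (adjusted p = 0.559, 0.846, 0.207 and 0.147 from limma). The within-array differences were −0.04, 0.029 and 0.041. Their adjusted p were 0.117, 0.844 and 0.844 in an exact paired sign-flip test, which flips the signs of the differences between mice of equal number. The count over all tested miRNAs was then 140 lower and 147 higher.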
